A study of Mus musculus with 8 samples.

Results

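A set of 10 genes of extracellular proteolysis in the mouse colon is described here: the matrix metalloproteinases Mmp2, Mmp3, Mmp7, Mmp9, Mmp13 and Mmp14, the tissue inhibitors of metalloproteinases Timp1, Timp2 and Timp3, and Slpi, the secretory leukocyte peptidase inhibitor. The members were all probe sets annotated to 1 of these 10 genes, which gave 18 of the 12422 probe sets on the array (the array holds 8251 named genes). RNA of total colon was hybridised to Affymetrix MG_U74Av2 arrays, 1 array for each of 8 pools. The 4 groups, with 2 pools each, were wild-type C57BL/6J, C57BL/6J carrying the targeted Il10 allele Il10tm1Cgn, wild-type C3H/HeJBir, and C3H/HeJBir carrying the same allele. Each animal gave 7 µg of RNA to its pool. Pools held 5 animals in C57BL/6J, 5 in C3H/HeJBir Il10-null sample 1, and 4 otherwise. An age, 4 weeks, is given only for the sample 2 pool of wild-type C57BL/6J, and no source used here gives the sex of the animals. The array's Il10 probe set read 5.43 to 10.9 in the 4 wild-type pools and 22.0 to 51.7 in the 4 pools labelled with the targeted allele. It was under the filter on low values, and the position of its probes against the changed stretch of the gene is not known here, so it checks no label. Pools with the allele are called Il10-null after their labels.

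Metalloproteinases are secreted or membrane-bound enzymes that cut collagens, other matrix proteins and cell surface proteins. They are made as inactive precursors, are activated by other proteases, and are held in check by the TIMPs, which bind the active enzyme. Slpi acts on another class of protease, the serine proteases of leukocytes such as neutrophil elastase, and is made by mucosal epithelium and by macrophages. Interleukin 10, the product of Il10, is a cytokine that dampens inflammation in the gut. C3H/HeJBir derives from C3H/HeJ, a strain with a defective receptor for bacterial lipopolysaccharide, Tlr4.

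Of the 18 probe sets, 9 passed the filter on low values (37.0 intensity units, averaged over the 8 arrays) and were tested, and they covered 6 genes. Those of Mmp2, Mmp3, Mmp9 and Mmp13 all lay under it. Of the 6 tested genes, 2 differed between the strains. Mmp7 and Slpi were both higher in C3H/HeJBir than in C57BL/6J, in wild-type and in Il10-null colon, while Mmp14, Timp1, Timp2 and Timp3 passed in no comparison. For Slpi the difference rested on 2 of its 4 probe sets. The Il10 allele gave no member probe set that passed the test in either strain.

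A probe set was called when its limma p-value, with the Benjamini-Hochberg adjustment made across all 7453 that were tested, lay under 0.05. Between the strains 3 of the 9 tested member probe sets were called in wild-type colon, where 0.403% of all tested probe sets were, and 3 of 9 in Il10-null colon, against 0.295% of all. Averaged over both genotypes it was again 3 of 9, against 1.11% of all. All 3 were higher in C3H/HeJBir, a direction in which 0.215%, 0.161% and 0.416% of all tested probe sets were called in wild type, in Il10-null and on average. The same 3 had every C3H/HeJBir pool above every C57BL/6J pool, as did 2.67% of all tested probe sets (14% among the wild-type and 11.9% among the Il10-null pools). Mmp7 passed the filter only through its C3H/HeJBir pools, so its count among the tested members is a description. Read by 1 probe set per gene, the 6 tested genes had a median log2 strain difference, averaged over the genotypes, of 0.08, beside -0.02 over all tested probe sets.

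Mmp7, or matrilysin, is a small secreted metalloproteinase of epithelial cells. In the small intestine it is known as the Paneth cell enzyme that activates alpha-defensins. Its probe set, 92917_at, read 7.03 and 5.84 in the sample 1 and sample 2 pools of wild-type C57BL/6J and 12.4 and 12.1 in those of C57BL/6J Il10-null. It read 184 and 115 in wild-type C3H/HeJBir and 308 and 225 in C3H/HeJBir Il10-null. The strains were thus far apart, with the lowest C3H/HeJBir pool well above the highest C57BL/6J pool. Within each strain both Il10-null pools also lay above both wild-type pools, so no 2 groups overlapped. The group means were 6.44 ± 0.841 (SD, n = 2 pools) in wild-type C57BL/6J, 12.2 ± 0.205 in C57BL/6J Il10-null, 150 ± 48.9 in wild-type C3H/HeJBir and 267 ± 58.9 in C3H/HeJBir Il10-null.

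Without detection calls the C57BL/6J values of Mmp7 are not known to lie above background, so no ratio of intensities is given. On the scale of the test, log2(intensity + 11.07), the strain difference of Mmp7 was 3.17 ± 0.28 (SE) in wild type (limma adjusted p = 0.00404) and 3.56 ± 0.28 in Il10-null (limma adjusted p = 0.00271). The added constant shrinks differences of low values, and all 4 C57BL/6J pools read near it or under it. With constants of 2.76 and 56.7 the average strain difference of Mmp7 was 4.08 and 1.95 in place of 3.36, and it passed with both. The wild-type call was lost when 1 wild-type C57BL/6J pool was left out (limma adjusted p = 0.0512 without sample 1 and 0.0647 without sample 2), with differences of 3.22 and 3.12. Among the sample 2 pools alone, which shared a hybridisation day, the strain difference of Mmp7 was 2.90 in wild type and 3.35 in Il10-null.

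**Figure D1:**
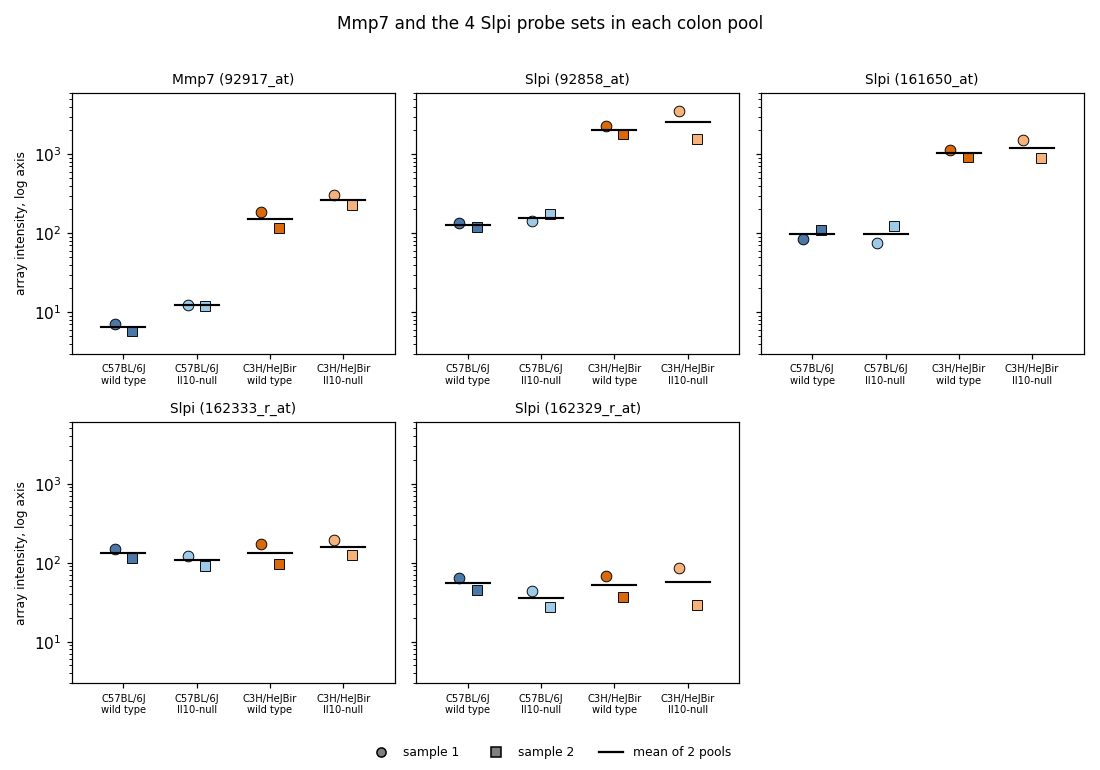
Array intensity on a log axis of Mmp7 and of the 4 Slpi probe sets in each of the 8 colon pools; circles are sample 1 pools, squares sample 2 pools, and bars the mean of the 2 pools of a group. Mmp7 and the Slpi probe sets 92858_at and 161650_at lay higher in all 4 C3H/HeJBir pools (orange) than in all 4 C57BL/6J pools (blue), while 162333_r_at and 162329_r_at lay in overlapping ranges.

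Mmp7, Mmp3 and Mmp13 lie on chromosome 9, and the promoter sequences of these 3 genes are shown beside that of Slpi, on chromosome 2, because Mmp7 and Slpi were the members that differed between the strains together. Each line gives the 120 bases before the annotated start, 5′ to 3′ on the gene's strand, from RefSeq on GRCm38.p6, which is C57BL/6J sequence. The intervals are chr9:7691970-7692089 (plus strand) for Mmp7, chr9:7445702-7445821 (plus) for Mmp3, chr9:7272394-7272513 (plus) for Mmp13 and chr2:164356508-164356627 (minus) for Slpi. Capitals mark matches on either strand to TGAGTCA, the binding motif of AP-1, and to TATAAA, the TATA box. The 2 motifs hold no letters in common where they are marked.
Mmp7: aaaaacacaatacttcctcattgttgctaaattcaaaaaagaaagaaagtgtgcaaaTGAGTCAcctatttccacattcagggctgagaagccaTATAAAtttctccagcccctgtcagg
Mmp3: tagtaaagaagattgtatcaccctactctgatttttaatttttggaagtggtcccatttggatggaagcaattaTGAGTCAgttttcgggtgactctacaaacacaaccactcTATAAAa
Mmp13: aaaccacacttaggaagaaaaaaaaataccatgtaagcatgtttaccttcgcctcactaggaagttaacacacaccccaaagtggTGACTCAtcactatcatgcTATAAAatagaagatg
Slpi: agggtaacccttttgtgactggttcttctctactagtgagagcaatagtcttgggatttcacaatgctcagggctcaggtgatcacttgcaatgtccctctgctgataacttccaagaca

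In the 250 bases before the start, the AP-1 motif was found in 4.46% and the TATA box in 12.4% of 32851 RefSeq promoter windows. The promoters of Mmp7, Mmp3 and Mmp13 each held both, with the AP-1 match beginning at -63, -46 and -35 from the start (the last base before it is -1). The TATA match nearest the start began at -26, -7 and -16 in the same order. Mmp7 held a further TATA match upstream of the bases shown. Neither motif was found in the windows of Slpi, Mmp14, Timp1, Timp2 or Timp3. The tables used held no window for Mmp2 or Mmp9. These matches describe letters only, and the C3H/HeJBir sequence was not read here.

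The Il10 comparisons of Mmp7 asked whether its level differed with the targeted Il10 allele. Between wild-type and Il10-null colon of C57BL/6J the difference was 0.41 ± 0.28 on the log2 scale, and in C3H/HeJBir it was 0.81 ± 0.28, and neither passed (limma adjusted p = 1.00 and 0.999, unadjusted 0.177 and 0.0202). In C57BL/6J all 4 values lay near or under the added constant. Averaged over the strains the Il10 difference of Mmp7 was 0.61 ± 0.20 (95% interval 0.15 to 1.07, limma unadjusted p = 0.0147, adjusted p = 1.00). An unadjusted p under 0.05 was reached by 3.09% of all tested probe sets in that comparison. Both Il10-null pools lay above both wild-type pools in both strains for 1 of the 9 tested member probe sets, Mmp7, and for 2.27% of all. The reverse order in both strains was found for 0 of the 9 and for 1.99% of all. Within the sample 2 pools of 1 hybridisation day the difference was 0.45 in C57BL/6J and 0.90 in C3H/HeJBir. The difference between the 2 Il10 effects was 0.39 ± 0.40 (limma adjusted p = 1.00).

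Slpi was read by 4 probe sets. On 92858_at, the brightest, Slpi read 133 and 120 in the sample 1 and 2 pools of wild-type C57BL/6J and 141 and 174 in C57BL/6J Il10-null. It read 2277 and 1811 in wild-type C3H/HeJBir and 3541 and 1537 in C3H/HeJBir Il10-null. All 4 C3H/HeJBir pools were far above all C57BL/6J pools, and the genotypes of C3H/HeJBir overlapped. On 161650_at Slpi read 85.5 and 110 in wild-type and 75.3 and 122 in Il10-null C57BL/6J, against 1133 and 921 in wild-type and 1516 and 891 in Il10-null C3H/HeJBir. This is the same split by strain.

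The ratio of mean Slpi intensities between the strains was 16.1 in wild type and 16.1 in Il10-null on 92858_at, and 10.5 and 12.2 on 161650_at. On the log2 scale the strain differences of Slpi on 92858_at were 3.89 ± 0.38 in wild type and 3.80 ± 0.38 in Il10-null (limma adjusted p = 0.00517 and 0.00604). On 161650_at they were 3.25 ± 0.34 and 3.45 ± 0.34 (limma adjusted p = 0.00640 and 0.00595). By the average over genotypes these probe sets ranked 6 and 8 of 7453 among those higher in C3H/HeJBir. Within the sample 2 pools the strain difference was 3.79 in wild type and 3.06 in Il10-null on 92858_at, and 2.94 and 2.76 on 161650_at.

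The other 2 Slpi probe sets did not separate the strains. On 162333_r_at Slpi read 147 and 116 in wild-type and 123 and 92.0 in Il10-null C57BL/6J, against 172 and 96.7 in wild-type and 193 and 125 in Il10-null C3H/HeJBir. On 162329_r_at it read 64.2 and 45.3, then 43.9 and 27.4 in C57BL/6J, and 67.3 and 37.1, then 85.6 and 28.8 in C3H/HeJBir. The strains overlapped on both, and in every group the sample 1 pool was the higher. A sample 1 pool above the sample 2 pool in all 4 groups was found in 4 of the 9 tested member probe sets (these 2, Mmp7 and Mmp14) and in 17.9% of all. The letter r in their names is the maker's mark for a probe set chosen under relaxed rules of probe selection. Their average strain differences were 0.25 (95% interval -0.30 to 0.79) and 0.17 (95% interval -0.55 to 0.90), with limma adjusted p = 0.986 and 0.997.

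Whether the 4 Slpi probe sets differed in their strain effect was tested on the log2 difference between 2 probe sets in each pool, by a two-sided exact permutation test of the strain labels. The 70 arrangements of the labels over the 8 pools allow no p below 0.0286, and p-values were adjusted over the 6 pairs. The strain effect on 92858_at exceeded that on 162333_r_at by 3.60 and that on 162329_r_at by 3.67 (exact p = 0.0286 and adjusted p = 0.0429 for each). That on 161650_at exceeded them by 3.11 and 3.18 (exact p = 0.0286 and adjusted p = 0.0429 for each). Between 92858_at and 161650_at the strain effects differed by 0.49 (exact p = 0.0571, adjusted p = 0.0686), and between the 2 others by 0.07 (exact p = 0.771). Since same-numbered pools deviate together, the labels were also exchanged within a sample number only. That leaves 36 arrangements with a smallest possible p of 0.0556, so no pair could pass, and the 4 pairs above reached this smallest value (adjusted p = 0.0667), as did 92858_at against 161650_at. In each of the 4 pairs the per-pool difference between the probe sets did not overlap between the strains: for 92858_at minus 162333_r_at it was 3.51 to 4.12 in C3H/HeJBir and -0.13 to 0.85 in C57BL/6J. When they were averaged, the strain difference of Slpi was 1.76 in wild type and 2.05 in Il10-null and no longer passed (limma adjusted p = 0.129 and 0.0756), while the average over genotypes, 1.91, did (limma adjusted p = 0.00880). The sequences of the probes were not used here.

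Calls of Slpi within 1 genotype also depended on single pools. In wild type, neither 92858_at nor 161650_at passed without either wild-type C57BL/6J pool (limma adjusted p = 0.0512 to 0.0710) or without the sample 1 wild-type C3H/HeJBir pool (0.0677 and 0.0824), and 161650_at did not pass without the sample 2 wild-type C3H/HeJBir pool (0.0645). In Il10-null, neither passed without the sample 1 C57BL/6J Il10-null pool (limma adjusted p = 0.0707 and 0.0602), and 92858_at did not pass without the sample 2 one (0.0558). The differences themselves stayed between 3.09 and 3.96 in these fits. With the hybridisation day as a block, 92858_at and 161650_at did not pass in Il10-null (limma adjusted p = 0.0655 and 0.0699), nor 161650_at in wild type (0.0653). Averaged over the genotypes the strain differences of Slpi on both probe sets, and of Mmp7, passed without each pool in turn and with either block.

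No Il10 effect on Slpi passed. The average Il10 difference of Slpi was 0.24 ± 0.27 on 92858_at (95% interval -0.37 to 0.86) and 0.08 on 161650_at (95% interval -0.46 to 0.63). In C3H/HeJBir the 2 pools of a genotype disagreed on 92858_at: the difference was 0.63 between the sample 1 pools and -0.24 between the sample 2 pools. Of all tested probe sets, 0% were called for the Il10 effect in C57BL/6J, 0.0134% (1 probe set) in C3H/HeJBir, 0% for the difference between the strains in that effect and 0% for its average. An unadjusted p under 0.05 was found for 118 (1.58%), 211 (2.83%), 112 (1.5%) and 230 (3.09%) probe sets in these 4 comparisons. Among the 9 tested member probe sets limma called 0 in each of them, and Mmp7 alone had an unadjusted p under 0.05, in C3H/HeJBir and on average.

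**Figure D2:**
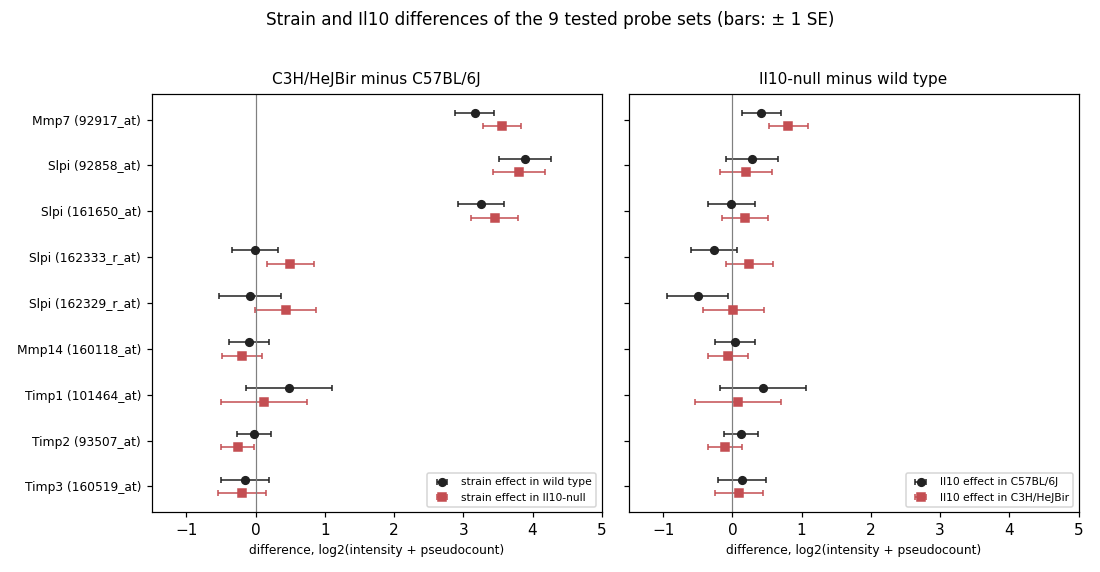
Differences on the scale log2(intensity + 11.07) of the 9 tested member probe sets, with bars of 1 SE from the limma fit; the left panel gives C3H/HeJBir minus C57BL/6J in each genotype and the right panel Il10-null minus wild type in each strain. On the left, Mmp7 and 2 Slpi probe sets lie between 3.17 and 3.89, and the other 6 lie between -0.26 and 0.50. On the right, the largest difference is that of Mmp7 in C3H/HeJBir, 0.81.

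Mmp14, the membrane-bound metalloproteinase that activates the precursor of Mmp2, was measured at like levels in every group. It read 284 and 218 in wild-type and 313 and 208 in Il10-null C57BL/6J, and 258 and 210.0 in wild-type and 253 and 195 in Il10-null C3H/HeJBir. The groups overlapped, and the sample 1 pool was the higher in each. The average strain difference of Mmp14 was -0.14 ± 0.20 (95% interval -0.61 to 0.33) and its average Il10 difference -0.02 ± 0.20 (95% interval -0.48 to 0.45).

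The 3 inhibitors of metalloproteinases passed in no comparison. Timp1, the inducible TIMP, varied most between the pools of a group, in proportion to its level, on 101464_at: it read 122 and 33.7 in wild-type and 171 and 49.0 in Il10-null C57BL/6J, and 126 and 73.0 in wild-type and 86.7 and 121 in Il10-null C3H/HeJBir. The range within wild-type C57BL/6J alone spanned most of the values seen, so its average differences, 0.30 for strain (95% interval -0.71 to 1.31) and 0.26 for Il10 (95% interval -0.75 to 1.27), were the least precise of the tested members. Timp2, which inhibits Mmp2 and also takes part in its activation by Mmp14, read 77.4 and 69.9 in wild-type and 98.2 and 66.7 in Il10-null C57BL/6J on 93507_at, and 75.3 and 69.0 in wild-type and 63.6 and 68.4 in Il10-null C3H/HeJBir. The C3H/HeJBir Il10-null pools of Timp2 lay just under the wild-type pools of both strains, and its average differences were -0.14 ± 0.17 for strain and 0.01 ± 0.17 for Il10. Timp3, which is bound to the matrix and also inhibits ADAM proteases, read 386 and 301 in wild-type and 479 and 297 in Il10-null C57BL/6J, and 414 and 227 in wild-type and 319 and 341 in Il10-null C3H/HeJBir. Its groups overlapped, with average differences of -0.17 ± 0.25 for strain and 0.12 ± 0.25 for Il10. The remaining probe sets of Timp1 and Timp2 (162107_r_at, 160116_at and 161515_i_at) read 0.93 to 15.2 in all pools and were not tested.

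**Figure D3:**
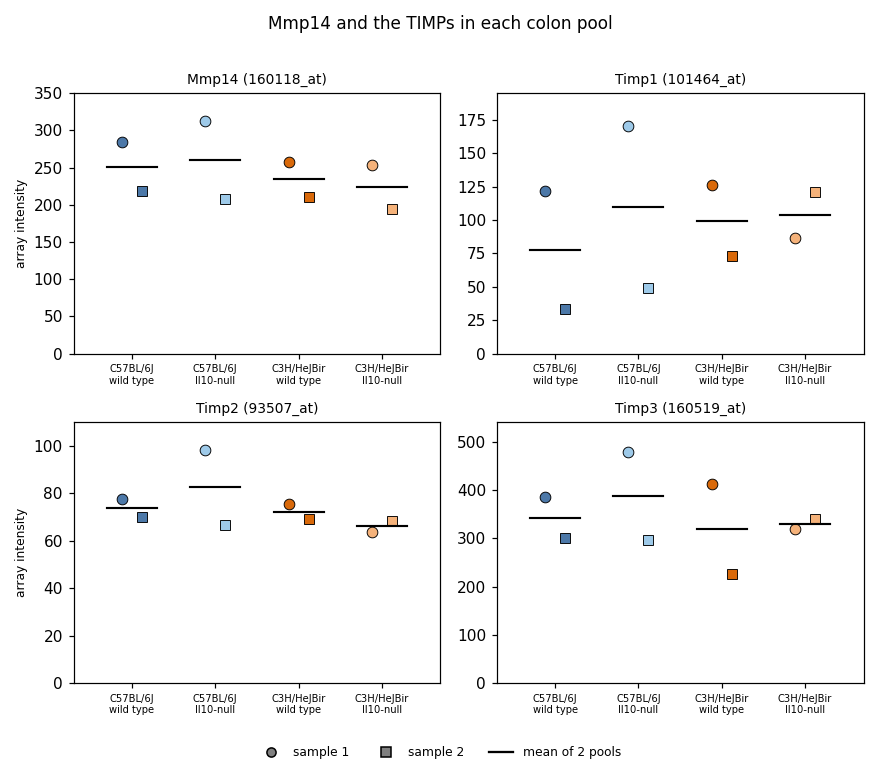
Array intensity on linear axes from 0 of Mmp14, Timp1, Timp2 and Timp3 in each of the 8 colon pools; circles are sample 1 pools, squares sample 2 pools, and bars the mean of the 2 pools of a group. The groups overlap for Mmp14, Timp1 and Timp3; for Timp2 the C3H/HeJBir Il10-null pools, at 63.6 and 68.4, lie just under the wild-type pools of both strains. In proportion to its level, Timp1 has the widest spread within a group, with 122 and 33.7 in wild-type C57BL/6J.

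The gelatinases, stromelysin and collagenase of the list were read at low intensities, and no detection calls were used, so whether they were above background is not known here. Mmp9, the gelatinase of neutrophils, read 5.16 to 12.8 on 99957_at and 0.85 to 7.18 on 162369_f_at. Mmp2, the gelatinase of fibroblasts, read 26.9 and 29.7 in wild-type and 40.1 and 27.2 in Il10-null C57BL/6J on 95663_at, and 19.9 and 17.9 in wild-type and 6.69 and 20.2 in Il10-null C3H/HeJBir. All 4 C3H/HeJBir values of this probe set lay under all 4 C57BL/6J values, a difference that was not tested. How many of all probe sets had this order was not counted. The reverse order was found in 2.67% of those tested, a share that covers neither this order nor probe sets under the filter. The second Mmp2 probe set, 161509_at, read 2.60 to 17.3 and overlapped between the strains.

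Mmp3, or stromelysin-1, which also activates other metalloproteinases, read 6.02 and 1.99 in wild-type and 10.2 and 5.11 in Il10-null C57BL/6J, and 13.5 and 24.1 in wild-type and 11.1 and 7.02 in Il10-null C3H/HeJBir. Mmp13, the main interstitial collagenase of rodents, read 12.7 to 24.3 in the C57BL/6J and the wild-type C3H/HeJBir pools. In C3H/HeJBir Il10-null it read 70.2 (sample 1) and 23.9 (sample 2). The level of Mmp13 in C3H/HeJBir Il10-null thus rested on a single pool, and the gene was not tested.

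**Figure D4:**
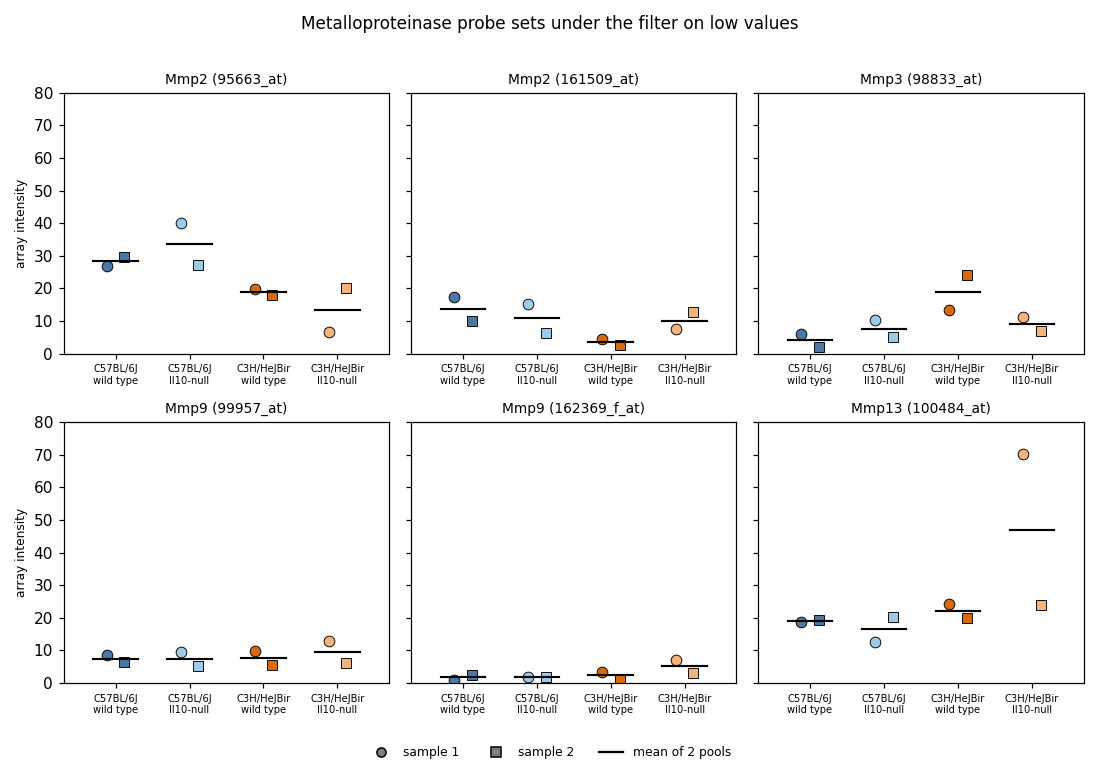
Array intensity on a linear axis of the 6 probe sets of Mmp2, Mmp3, Mmp9 and Mmp13, all with a mean under the filter of 37.0, in each of the 8 colon pools; circles are sample 1 pools, squares sample 2 pools, and bars the mean of the 2 pools of a group. One point stands apart, Mmp13 at 70.2 in C3H/HeJBir Il10-null sample 1.

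The C3H/HeJBir Il10-null sample 1 pool stood apart in other genes as well. Across all probe sets its mean Spearman coefficient with the other arrays was 0.915, where the rest had 0.931 to 0.945. S100a8, a protein of neutrophil granules, read 581 in it and 9.53 to 35.0 elsewhere, and S100a9 read 173 in it and 1.83 to 9.74 elsewhere. The summed intensity of the 12 neutrophil markers on the array was 3364 in this pool and 855 to 1549 in the others. Of the 12, 5, Elane and Mpo among them, stayed under the filter level in every pool. Ly6g alone made 2262 of the 3364. The median deviation of the 12 from their means was 0.15 on the log2 scale in this pool and -0.26 to 0.05 elsewhere. Il1b, a cytokine that induces metalloproteinases, read 44.2 in it and 1.88 to 9.54 elsewhere. Its 9 exocrine pancreas markers were higher by a median of 1.74 on the log2 scale than their means over the arrays. They were also high, by 1.18, in the C57BL/6J Il10-null pool hybridised on the same day, and -0.94 to 0.39 from the means in the rest. Its smooth muscle markers differed by -0.61 from their means. Mmp7, Slpi on all 4 probe sets, Mmp9 on both, Mmp13 and Timp1 on 162107_r_at had their highest value there. The share of all probe sets with their highest value in this pool was not counted. The part of these markers in the member values was not tested. Without this pool the strain differences in Il10-null colon were 3.34 for Mmp7, 3.20 for Slpi on 92858_at and 3.07 on 161650_at, and all 3 passed (limma adjusted p = 0.0137, 0.0117 and 0.0271).

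Markers of other cell types were also compared between the strains, and their part in the strain differences of Mmp7 and Slpi was not tested. The summed intensity of the 12 macrophage markers was 1652 to 2086 in the C57BL/6J pools and 3297 to 5658 in the C3H/HeJBir pools. Of the 8 that were tested only Cd14, the co-receptor for lipopolysaccharide, rose (average log2 difference 2.42, limma adjusted p = 0.000986). The 8 had a median strain difference of -0.0034, with 4 of 8 above 0. The alpha-defensin Defa24, a Paneth cell product, read 3.50 to 18.7 in every pool, while Itln1, a lectin of goblet and Paneth cells, was higher in C3H/HeJBir (average log2 difference 3.85, limma adjusted p = 0.00182). Itln1 read 1570 and 1844 in wild-type C3H/HeJBir, 261 and 1037 in C3H/HeJBir Il10-null, and 44.6 to 64.9 in C57BL/6J. Of the 4 tested small intestinal and Paneth cell markers, 1 was called between the strains in wild type and 0 in Il10-null. Their median average strain difference was 0.23, with 3 of 4 above 0. Epithelial markers were high throughout, with Krt8 at 7153 to 10383, and 0 of 11 were called between the strains. In bulk tissue, fewer cells of a type and less RNA per cell cannot be told apart. Xist ranged from 243 to 452 in sample 1 and from 2.84 to 12.9 in sample 2 pools, and the strain differences of Mmp7 and of the 2 Slpi probe sets were present within each sample number.

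The genes whose pattern was most like that of Slpi and Mmp7 were found by Pearson correlation of log2 values over the 8 pools, a description over pools that stand apart by strain. For Slpi on 92858_at they were Pla2g2a (0.990), a secreted phospholipase that kills bacteria, then Mmp7 (0.985), Galnt1 (0.984), H2-D1 (0.982) and Gbp2b (0.979). For Mmp7 they were Glo1 (0.991), Slpi on 92858_at (0.985), Cd14 (0.985), Pla2g2a (0.980) and Slpi on 161650_at (0.979). The strain differences behind like patterns varied in size, from 0.54 for Galnt1, which did not pass (limma adjusted p = 0.264), and 0.92 for Glo1 to 5.80 for Pla2g2a. The tested genes beside Mmp7 on chromosome 9 (Casp1, Casp4, Dcun1d5, Tmem123, Birc2 and Birc3) had average strain differences of -0.04 to 0.48, and those beside Slpi on chromosome 2 (Ada, Ywhab, Tomm34, Matn4, Sdc4 and Sys1) of -0.43 to 0.58. None of these 12 neighbours passed.

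The other genes of the system were read from 8 lists with 127 genes. The array held 103 of them and 64 were tested, each by its brightest probe set. In all 7 comparisons 0 of the 64 passed by limma, where 1.11% of all tested probe sets did in the average strain effect and 0% in the average Il10 effect. Dimmer probe sets of these genes were not counted, and a dimmer one of Ctsc, given below, passed in the strain comparisons. An unadjusted p under 0.05 was found for 6 of the 64 in the average strain effect, against 8.43% of all tested probe sets, and for 6 in the average Il10 effect, against 3.09% of all. The smallest adjusted p, 0.0741, belonged to the average strain effect. The other metalloproteinases with Timp4 and Reck had 2 tested genes. Reck, a membrane-anchored inhibitor of metalloproteinases, differed on average by 0.58 ± 0.35 with the Il10 allele and 0.22 ± 0.35 between the strains, and the membrane-bound Mmp17 by 0.19 ± 0.28 and -0.14 ± 0.28. Among 6 tested ADAM proteases, Adam28 differed by 0.63 ± 0.24 and Adam19 by -0.26 ± 0.42 with the Il10 allele, and Adamdec1, an ADAM-like protease of gut macrophages, by 0.44 ± 0.21 between the strains. The medians of the 6 were 0.13 for Il10 and 0.14 for strain, beside -0.01 and -0.02 over all tested probe sets.

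The plasminogen system, which activates several metalloproteinases, had 4 tested genes with medians of 0.15 for Il10 and -0.07 for strain. Plaur, the urokinase receptor, differed on average by 0.75 ± 0.31 with the Il10 allele and 0.63 ± 0.31 between the strains. Furin, which activates Mmp14, differed by 0.27 ± 0.18 with the Il10 allele, and Plat, tissue plasminogen activator, by -0.61 ± 0.23 between the strains. The listed leukocyte proteases, most of them of the serine class that Slpi acts on, were mostly low. Whether Slpi acts on each of them was not examined. Of the 13, 5 were tested, with medians of 0.04 for the average Il10 effect and -0.06 for strain. The median of their Il10 effects was -0.17 in C57BL/6J, with 2 of 5 above 0. In C3H/HeJBir it was 0.87, with 5 of 5 above 0. The difference between the 2 effects had a median of 0.75, beside -0.01 over all tested probe sets, and 0 of the 5 passed in any of these comparisons. The granzymes Gzma and Gzmb differed with the Il10 allele by 0.71 ± 0.27 and 0.49 ± 0.24, and the chymase Cma2 between the strains by 0.81 ± 0.35. In C3H/HeJBir, Gzma read 24.7 ± 8.46 (SD) in wild type and 56.2 ± 27.7 in Il10-null, and Gzmb 23.5 ± 3.62 and 56.4 ± 28.6. These wild-type means lay under the filter level of 37.0. The Il10-null group holds the sample 1 pool that stood apart, and its part in these values was not tested.

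Among 14 other tested protease inhibitors, Wfdc18, which shares the whey acidic protein domain of Slpi, came closest to the threshold. It read 99.2 ± 39.2 and 124 ± 47.2 in wild-type and Il10-null C57BL/6J and 268 ± 19.6 and 239 ± 6.74 in C3H/HeJBir, an average strain difference of 1.16 ± 0.23 (limma adjusted p = 0.0741). The acute-phase serpin Serpina3n differed between the strains by 0.85 ± 0.36, and Serpinf1 and the trypsin inhibitor Spink1 with the Il10 allele by 0.83 ± 0.35 and -0.71 ± 0.24. The 14 had a median strain difference of 0.10 and Il10 difference of 0.03. Of 11 tested cathepsins, lysosomal proteases for the most part, Ctsh and Ctse differed between the strains by -0.71 ± 0.21 and 0.47 ± 0.17, and Ctsf and Ctsk with the Il10 allele by -0.53 ± 0.22 and 0.18 ± 0.27. The cathepsins had medians of 0.11 for strain and 0.03 for Il10. Ctsc, the activator of leukocyte serine proteases, was split between its probe sets as Slpi was, with a strain difference of 0.11 on 101019_at and -2.47 on 101020_at (limma adjusted p = 0.00178), and was singled out after its values were seen.

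The proteins these enzymes cut showed no call. The 21 tested matrix and cell surface genes had a median of -0.14 for strain, with 5 of 21 above 0, and of -0.09 for Il10, with 4 of 21 above 0. The fibrillar collagens Col3a1 and Col1a2 differed with the Il10 allele by -0.34 ± 0.26 and -0.29 ± 0.32, and between the strains the laminin chain Lamc1 and the elastin gene Eln by 0.66 ± 0.41 and -0.53 ± 0.31. Fibroblast and smooth muscle markers had medians of -0.14 each between the strains. Col3a1, Col1a2 and further genes are in both the fibroblast and the matrix list, so the medians of those lists are not independent. Of 9 inflammatory cytokines on the array only Il18, an epithelial cytokine, was tested. It differed by 0.72 ± 0.17 between the strains and -0.19 ± 0.17 with the Il10 allele, and neither passed.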

How the data were processed

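The values are array intensities on a linear scale, as deposited by the authors. How probes were summarised and scaled, and any detection calls, is not given in the sources used. The array means, trimmed by 2% at each end, differed by a ratio of 1.01, so the deposited scaling was kept. Groups came from the sample titles. Values were taken as log2(intensity + 11.07), the 20th percentile. A mean of 37.0 (40th percentile) was required for testing, which 7453 probe sets of 5688 genes met. The 4 group means were fitted with limma 3.58.1 in R 4.3.3 (4 residual and 4.23 prior degrees of freedom). The script was checked on simulated data. P-values of the fit to group means measure the spread between the 2 pools of a group. In every group these were 1 sample 1 and 1 sample 2 pool, hybridised in different years and far apart in Xist. That spread thus includes the contrast between sample numbers and is not one between like pools. The experiment files gave 3 hybridisation days: 1 for the sample 1 Il10-null pools, 1 for the sample 1 wild-type pools and 1 for all sample 2 pools. Same-numbered pools deviated together (correlations of 0.198 to 0.332 over the 6 group pairs), so the number pairs them.

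Of each list, passing genes were named, otherwise the 2 with the largest average Il10 and strain differences. For likeness, the 5 highest correlations were named. Members, lists and tests were chosen with earlier results of these data known. Symbols came from the platform annotation; promoters and gene order from RefSeq, GRCm38.p6.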

Additional observations from a re-analysis of the deposited data

Results flagged for a closer look

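In 2 probe sets under the filter, the Il10 effect had opposite signs in the strains in each sample number. The difference was not tested in either. Mmp2 on 161509_at had Il10 differences of -0.11 and -0.29 in C57BL/6J and of 0.26 and 0.79 in C3H/HeJBir, a difference between the strains of 0.73. Mmp3 differed by 0.31 and 0.31 in C57BL/6J, while the C3H/HeJBir values were -0.15 and -0.96, a difference of -0.87. All intensities behind these values were 1.99 to 24.1. Slpi on 162333_r_at, which was tested, had the same sign pattern (C57BL/6J -0.24 and -0.30, C3H/HeJBir 0.16 and 0.34). Its difference of 0.51 did not pass (limma adjusted p = 1.00). The pattern was found in 3 of the 18 member probe sets and in 1452 of all 12422 (11.7%).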

How the results depend on the processing

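The 63 member results were recomputed under 20 alternatives, which gave 1219 values. Of these, 1105 kept their direction and side of the threshold, 19 called differences no longer passed, 2 now passed, 93 changed sign while not called, and 0 called differences changed sign. Most of the 63 were not called to begin with. The 2 that now passed were Slpi on 162333_r_at and 162329_r_at when probe sets were averaged, and both stand for the same Slpi average, 1.91. Neither passed by its own values. The losses of the averaged Slpi are likewise entered for both 92858_at and 161650_at. The 3 of 9 member probe sets called between the strains became 1 in Il10-null with the hybridisation day as a block, and 1 in each genotype when a gene's probe sets were averaged. Leaving out single pools gave 0 to 3 in wild type and 1 to 3 in Il10-null. With the sample number as a replicate block, the paired fit, the count was 3 in each of these comparisons and no member call changed. Among all probe sets, the 30 called in wild type became 53 with the larger constant, 51 with trend and robust moderation, 49 with only the compared groups and 46 at a threshold of 0.1. The 22 in Il10-null became 45, 45, 12 and 44 under these, 14 without a filter, 14 with averaged probe sets and 6 with the day block. Without single pools the counts were 2 to 39 in wild type, 4 to 34 in Il10-null, 39 to 106 for the average strain effect, 0 to 7 for Il10 in C3H/HeJBir and 0 to 11 for the average Il10 effect. For Il10, 1 probe set or 0 was called in C57BL/6J and in C3H/HeJBir under the other alternatives. In an alternative chosen after seeing the data, exchanging strain labels within a sample number, 4 of the 6 Slpi probe set pairs no longer passed, since the smallest possible p is then 0.0556. The other causes were not tested. With 2 pools a group, and no detection calls, low probe sets allow no statement on presence.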
